A study of Homo sapiens with 12 samples.

Results

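Aminoacyl-tRNA synthetases and translation initiation factors were followed in 2 human cancer cell lines treated with SWTX-143, a compound that irreversibly inhibits TEAD, the transcription factors through which YAP and TAZ act on genes. The group holds 44 of the 27064 gene symbols in the deposited count tables, taken by symbol: 20 cytosolic synthetases and 24 initiation factors and their regulators. The lines were NCI-H226 (H226), from mesothelioma, and ACHN, from kidney cancer, both described by the submitters as NF2-deficient, treated and control cells alike. Cells of each line were held overnight in 100 nM SWTX-143 or in DMSO, and 3 poly(A) libraries were sequenced per group, 12 in all. Whether replicate libraries stem from separate cultures is not stated in the labels, so p-values measure only the spread between these libraries, which may be technical.

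Synthetases join each amino acid to its tRNA, and initiation factors bring the initiator tRNA, the mRNA and the ribosomal subunits together at the start codon. Cells set this supply to their growth: MYC and mTORC1 raise it, while the kinases that phosphorylate eIF2 lower initiation and raise ATF4, a transcription factor that itself activates many synthetase genes. YAP and TAZ drive growth programmes in tumours that have lost NF2.

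Total counts per library were 9690980 to 11262663 for H226, and 10113810 to 11206457 for ACHN. Levels are given as CPM, counts scaled to a common library size with the trimmed mean of M-values (TMM), as mean ± SD, and log2 fold changes of SWTX-143 over DMSO as estimate ± SE, always with n = 3 libraries per group. A gene is called when edgeR's quasi-likelihood test gives a Benjamini-Hochberg adjusted p under 0.05 over all tested genes. NF2 had 0 counts in every H226 library but 1, which had 1, and 1015 to 1289 counts in every ACHN library, so the counts show no loss of the NF2 transcript in ACHN. The mesothelial markers MSLN and CALB2 stood at 188 and 978 CPM in H226 under DMSO against 0.831 and 0.537 in ACHN, but LRRN4, another, stood at 240 and 187 CPM and did not separate the lines as clearly. The kidney marker PAX8 stood at 416 CPM in ACHN against 1.14 in H226, EMX2 was at 0 in both lines, and the summed immune and endothelial markers stayed at or under 3.66 CPM. In H226 5 of 7 mesothelial markers were called higher with treatment and their sum over libraries was 3030–3160 CPM under DMSO and 3530–3720 CPM under SWTX-143. In ACHN the 3 tested ones (LRRN4, UPK3B and BNC1) were called lower, and the sum was 197–199 CPM under DMSO and 159–169 CPM under SWTX-143. Of the kidney markers, LHX1 was called higher in H226 (0.88 ± 0.12) and LHX1 (0.68 ± 0.09) and CDH16 (0.53 ± 0.09) in ACHN, where their sum was 773–805 and 778–842 CPM. The part of these shifts in the results was not tested. All 6 direct YAP/TEAD targets checked were called lower in both lines, among them CTGF at −2.53 ± 0.08 in H226 and −2.39 ± 0.06 in ACHN.

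Most of the genes fell in H226 and fewer, by less, in ACHN. In H226, 30 of the 43 tested members were called lower, against 21.6% of all tested genes, and 2 were called higher, against 19.0%. In ACHN, 15 were called lower, against 9.37% of all tested genes, and 1 was called higher, against 8.43%. In either direction this made 74.4% of tested members against 40.7% of genes in H226, and 37.2% against 17.8% in ACHN. The median log2 fold change of the members was −0.19 in H226 and −0.05 in ACHN, where the median of all tested genes was −0.0011 and 0.0013. The members were chosen with earlier results of these data known, so these shares describe the chosen genes and do not test the families. Outside the group, 9 other tested eIF3 subunits had medians of −0.04 in H226 and 0.02 in ACHN. For 17 other tested initiation factors the medians were −0.03 and −0.01.

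These genes are well expressed, and calls are more frequent among such genes. Among the 1910 genes of H226 that lay within the members' own middle range of level (84.1 to 230 CPM), 33.9% were called lower, against 16 of the 21 members there. In the matching range of ACHN (103 to 360 CPM), 21.5% of 1968 genes and 8 of 21 members were called lower. The changes were small in size: only FARSB changed by more than 1.5-fold in H226 and no member did in ACHN, and 25 members in H226 and 7 in ACHN changed by more than 10%. The 3 treated libraries lay wholly on one side of the 3 DMSO libraries for 34 of 43 tested members in H226 (79.1%), against 48.7% of all tested genes, and for 21 of 43 in ACHN (48.8%), against 31.9%. Within the same ranges of level the counts were 18 of 21 members against 60.1% of genes in H226, and 12 of 21 against 48.7% in ACHN. Of the members whose groups were apart, 3 in H226 and 5 in ACHN were not called.

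Summed over the 20 synthetases, H226 libraries held 2939 to 3063 CPM under DMSO and 2606 to 2673 CPM under SWTX-143, so that the mean fell by 12.34%. The ACHN sums were 4264 to 4282 and 4046 to 4139 CPM, so that the mean fell by 4.22%. The initiation factors summed to 7557–7823 CPM under DMSO and 6923–7124 CPM under SWTX-143 in H226, and to 7783–7861 and 7388–7622 CPM in ACHN. In all 4 cases every treated library lay below every DMSO library. As a plain share of the counts, with no scaling, the members held 1.04% to 1.07% of each DMSO library and 0.967% to 0.99% of each treated one in H226. In ACHN they held 1.19% to 1.2% and 1.16% to 1.18%. These are shares of the sequenced RNA, and fewer cells with a transcript and less of it per cell cannot be told apart.

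**Figure D1:**
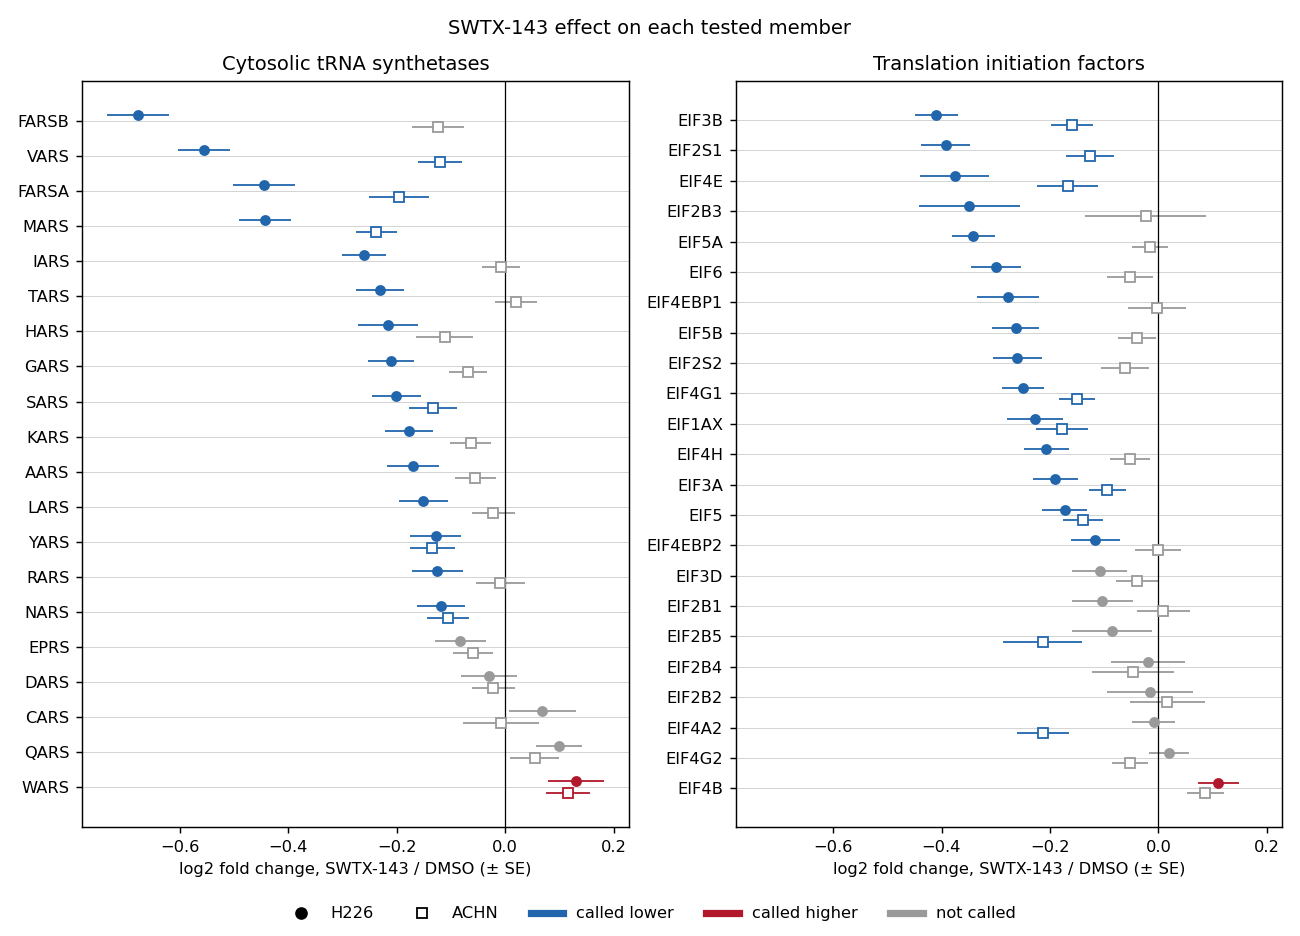
Log2 fold change of SWTX-143 over DMSO (± SE, x axis) for each of the 43 tested members, in rows sorted by the H226 value, with filled circles for H226 and open squares for ACHN; blue marks genes called lower, red genes called higher and grey genes not called. The H226 circles mostly lie left of the ACHN squares, with FARSB at −0.68 and VARS at −0.56 farthest, and WARS is red in both lines.

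Among the synthetases, 15 of 20 were called lower and 1 higher in H226 (median −0.17), and 6 lower and 1 higher in ACHN (median −0.06). The largest fall in either line was in FARSB, the β subunit of phenylalanyl-tRNA synthetase. Its levels in the H226 DMSO libraries were 92.5, 105 and 93.8 CPM, and in the treated libraries 60.1, 57.2 and 65.3 CPM. The groups did not overlap, and the FARSB mean went from 97.2 ± 6.99 to 60.8 ± 4.10 CPM, a 1.60-fold fall (log2 fold change −0.68 ± 0.06, edgeR adjusted p = 3.07e-14). In ACHN the values were 112, 113 and 111 CPM under DMSO and 101, 109 and 98.1 CPM under SWTX-143. These groups did not overlap either, yet FARSB was not called there (log2 fold change −0.12 ± 0.05, edgeR adjusted p = 0.0632).

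FARSA encodes the catalytic α subunit of the same enzyme, and it fell in both lines. Its H226 levels were 70.8, 75.1 and 73.4 CPM under DMSO and 54.8, 56.0 and 50.4 CPM under SWTX-143 (log2 fold change −0.44 ± 0.06, edgeR adjusted p = 3.87e-09). Its ACHN levels were 69.5, 72.9 and 72.4 CPM and 60.6, 62.2 and 64.8 CPM (log2 fold change −0.20 ± 0.05, edgeR adjusted p = 0.00712). Treated and DMSO libraries were apart in both lines, by more in H226. Without ACHN SWTX-143 replicate 1 the ACHN fall of FARSA was −0.17 ± 0.06, no longer called (edgeR adjusted p = 0.0547).

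VARS, valyl-tRNA synthetase, and MARS, methionyl-tRNA synthetase, also fell in both lines. VARS stood at 155, 159 and 168 CPM in the H226 DMSO libraries and at 114, 106 and 108 CPM in the treated ones (log2 fold change −0.56 ± 0.05, edgeR adjusted p = 1.43e-14). In ACHN it stood at 187, 182 and 189 CPM and 174, 173 and 166 CPM (log2 fold change −0.12 ± 0.04, edgeR adjusted p = 0.0287). The groups were apart in each line, but the ACHN call was lost in 8 of 14 alternative analyses, with estimates of −0.13 to −0.09 and adjusted p up to 0.135. MARS, which also charges the initiator tRNA, had the largest fall of any member in ACHN. Its ACHN levels were 263, 261 and 266 CPM under DMSO and 231, 219 and 220.3 CPM under SWTX-143 (log2 fold change −0.24 ± 0.04, edgeR adjusted p = 3.06e-06). Its H226 levels were 156, 164 and 157 CPM and 116, 111 and 124 CPM (log2 fold change −0.44 ± 0.05, edgeR adjusted p = 2.79e-11). No treated library reached a DMSO library in either line, and MARS kept its call in all 14 alternatives of both lines. MARS exons share 5.05% of their bases with DDIT3, on the opposite strand at a mean of 37.8 CPM against 190.7 for MARS, and the strand setting of the counting is not given in the sources used here.

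IARS and TARS, the isoleucyl and threonyl enzymes, fell in H226 and were not called in ACHN. IARS stood at 309, 317 and 310.4 CPM under DMSO and 267, 256 and 259 CPM under SWTX-143 in H226 (log2 fold change −0.26 ± 0.04, edgeR adjusted p = 4.79e-07). In ACHN the levels of IARS were 399, 389.8 and 397 CPM and 395, 401 and 385 CPM, with overlapping groups (log2 fold change −0.01 ± 0.04). TARS stood at 163, 166 and 166 CPM and 139.9, 142 and 139.7 CPM in H226 (log2 fold change −0.23 ± 0.04, edgeR adjusted p = 2.34e-05). Both genes thus had all 3 treated H226 libraries below all DMSO libraries. In ACHN, TARS overlapped between groups at 201, 191 and 191 CPM and 194, 200.1 and 197 CPM (log2 fold change 0.02 ± 0.04).

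The other synthetases that fell in H226 lost less. The log2 fold changes were −0.22 ± 0.06 for HARS (histidine), −0.21 ± 0.04 for GARS (glycine), −0.20 ± 0.05 for SARS (serine) and −0.18 ± 0.04 for KARS (lysine). They were −0.17 ± 0.05 for AARS (alanine), −0.15 ± 0.05 for LARS (leucine), −0.13 ± 0.05 for YARS (tyrosine), −0.12 ± 0.05 for RARS (arginine) and −0.12 ± 0.04 for NARS (asparagine). Of these 9, SARS, YARS and NARS also fell in ACHN, by 0.13 ± 0.04, 0.13 ± 0.04 and 0.11 ± 0.04 on the log2 scale, calls that were lost in 7, 5 and 10 of 14 alternatives. The ACHN values of the other 6 were −0.11 ± 0.05 for HARS, −0.07 ± 0.03 for GARS, −0.06 ± 0.04 for KARS, −0.05 ± 0.04 for AARS, −0.02 ± 0.04 for LARS and −0.01 ± 0.04 for RARS, none called. The H226 calls of LARS, YARS, RARS and NARS were lost in 2, 7, 8 and 7 of 14 alternatives, with adjusted p up to 0.0691, 0.189, 0.202 and 0.216. HARS exons share bases with HARS2 and WDR55, at 37.9 and 32.2 CPM against 75.8, so its counts may hold reads of both neighbours.

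WARS, tryptophanyl-tRNA synthetase and also known as an interferon-induced gene, was the only synthetase called higher, and it was so in both lines by a small amount. Its H226 levels were 81.5, 86.7 and 87.1 CPM under DMSO and 91.8, 96.5 and 91.1 CPM under SWTX-143 (log2 fold change 0.13 ± 0.05, edgeR adjusted p = 0.0367). Its ACHN levels were 154, 165 and 163 CPM and 172, 173 and 177 CPM (log2 fold change 0.12 ± 0.04, edgeR adjusted p = 0.0418). Every treated library was above every DMSO library in both lines. The H226 call was lost without DMSO replicate 1 (0.10, edgeR adjusted p = 0.172), DMSO replicate 2 (0.14, edgeR adjusted p = 0.055), SWTX-143 replicate 1 (0.14, edgeR adjusted p = 0.0565) or SWTX-143 replicate 2 (0.10, edgeR adjusted p = 0.176). With all libraries kept it was lost with no filter on low counts (0.13, edgeR adjusted p = 0.0607) and with DESeq2 (0.13, adjusted p = 0.127). In ACHN it was lost without DMSO replicate 1 (0.09, edgeR adjusted p = 0.187) or 3 (0.13, edgeR adjusted p = 0.0874), or any treated library (0.10 to 0.13, edgeR adjusted p = 0.0537 to 0.113), and also with DESeq2 (0.12, adjusted p = 0.121) and the replicate block (0.12, edgeR adjusted p = 0.0799).

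The remaining 4 enzymes were called in neither line. QARS (glutamine) stood at 191, 194 and 192 CPM and 210.3, 203 and 205 CPM in H226, with all treated libraries above all DMSO libraries and an edgeR adjusted p of 0.0564 (log2 fold change 0.10 ± 0.04). Its ACHN value was 0.05 ± 0.04. CARS (cysteine) had 0.07 ± 0.06 in H226 and −0.01 ± 0.07 in ACHN, DARS (aspartate) −0.03 ± 0.05 and −0.02 ± 0.04, and the bifunctional EPRS (glutamate and proline) −0.08 ± 0.05 and −0.06 ± 0.04.

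Synthetases fall into classes by the fold of their catalytic domain, and EPRS is counted here by its glutamyl part. In H226, 9 of 10 class II genes were called lower and 0 higher (also 0 at an unadjusted p under 0.05), with a median of −0.21. The 10 include FARSA and FARSB, which encode subunits of 1 enzyme. Of 10 class I genes, 6 were called lower and 1 higher in H226, with a median of −0.13. In ACHN 3 of 10 were called lower in each class, with medians of −0.09 and −0.02. Among the 8 synthetases bound in the cytosolic multi-tRNA synthetase complex, 5 were called lower in H226 and 1, MARS, in ACHN, with medians of −0.14 and −0.02. The 12 synthetase genes outside this complex had 10 lower and 1 higher in H226 (median −0.21). In ACHN these 12 had 5 lower and 1 higher (median −0.11). No difference between these classes was tested. Of the 3 non-enzymatic scaffold proteins of the complex, AIMP2 fell in both lines (−0.42 ± 0.05 and −0.20 ± 0.05) and EEF1E1 in H226 (−0.67 ± 0.20), while AIMP1 was not called in either line (−0.07 and −0.02).

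ATF4 binds a composite element, TGATGNAA, in the promoters of genes that respond to amino acid shortage, and 12 of the 20 synthetases are known as its targets. In H226, 9 of these 12 were called lower and 1 higher (median −0.16), and 6 of the other 8 were called lower (median −0.20). In ACHN the counts were 4 lower and 1 higher of 12 (median −0.06) and 2 lower of 8 (median −0.09). RefSeq promoter windows of GRCh38.p14, 250 bases before to 50 after the start site, were found for 37 of the 44 members. The element, searched on both strands, was in 6 of 16 synthetase windows (37.5%) and in 0 of 21 windows of initiation factors. It was in 3.67% of all 27305 windows and in 1.58% of 10625 windows of genes tested in H226. All 6 matches read TGATGCAA, which was in 0.442% of the windows of tested genes. A match is a description of letters and not of binding. The 6 stretches are shown because the element was found in synthetase windows and in no window of an initiation factor, with the match in capitals, as TTGCATCA where it lies on the other strand.
AARS: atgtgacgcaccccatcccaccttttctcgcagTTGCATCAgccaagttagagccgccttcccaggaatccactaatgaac
CARS: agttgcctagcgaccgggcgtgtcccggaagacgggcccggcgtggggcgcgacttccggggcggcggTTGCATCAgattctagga
IARS: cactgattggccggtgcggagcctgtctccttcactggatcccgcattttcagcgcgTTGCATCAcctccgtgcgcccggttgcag
MARS: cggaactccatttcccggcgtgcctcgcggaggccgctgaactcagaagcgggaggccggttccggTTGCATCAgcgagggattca
NARS: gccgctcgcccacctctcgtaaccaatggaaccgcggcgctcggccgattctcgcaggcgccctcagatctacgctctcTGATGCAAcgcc
TARS: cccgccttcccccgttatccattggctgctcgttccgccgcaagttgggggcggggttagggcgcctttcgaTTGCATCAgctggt
In gene direction these run 5′ to 3′ and cover chr16:70289646-70289726 on the minus strand for AARS, chr11:3057408-3057493 on the minus strand for CARS, chr9:92293682-92293767 on the minus strand for IARS, chr12:57487998-57488083 on the plus strand for MARS, chr18:57621811-57621901 on the minus strand for NARS and chr5:33440895-33440980 on the plus strand for TARS. The match began at base −187 of AARS and between −13 and 14 of the other 5, counted from the first transcribed base as 0. Of the 6 genes, MARS, IARS, TARS, AARS and NARS fell in H226, by 0.44 to 0.12 on the log2 scale. CARS was not called there (0.07 ± 0.06), and no difference among the 6 genes was tested. In ACHN only MARS and NARS of the 6 were called lower.

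Other readouts of the amino acid response did not move one way. Of 12 such genes, 2 were called lower and 2 higher in H226 (median −0.01), and 2 lower and 1 higher in ACHN (median −0.06). That was 33.3% called in H226, against 40.7% of all tested genes, and 25% in ACHN, against 17.8%. With so few genes these counts are near those shares. ATF4 itself was not called in H226 (−0.04) and fell in ACHN by 0.10 on the log2 scale. In H226 the serine synthesis enzyme PHGDH rose (0.39 ± 0.06), its pathway partner PSAT1 fell (−0.43 ± 0.08) and CEBPB rose (0.40 ± 0.05), while in ACHN the stress-induced mTORC1 inhibitor SESN2 rose (0.46 ± 0.06) and DDIT3 fell (−0.19 ± 0.06). Among 6 eIF2 kinases and phosphatase subunits, 3 fell in H226, which were PPP1R15B (−0.40 ± 0.05), EIF2AK4 (−0.29 ± 0.06) and EIF2AK2 (−0.18 ± 0.05). edgeR called 0 of the 6 in ACHN, where 3 were lower at an unadjusted p under 0.05. Mitochondrial synthetases with genes of their own had 7 of 17 called lower in H226 (median −0.09), led by MARS2 (−0.71 ± 0.11). In ACHN 3 of 17 were called lower (median −0.10), led by WARS2 (−0.35 ± 0.08). With 0 called higher in either line, the calls made 41.2% of the 17 in H226 and 17.6% in ACHN. Of all tested genes, 40.7% and 17.8% were called in either direction, and 21.6% and 9.37% lower. For these and the other gene lists the background is the share of all tested genes given above.

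Among the initiation factors, 15 of 23 tested were called lower and 1 higher in H226 (median −0.21), and 9 lower and 0 higher in ACHN (median −0.05). At an unadjusted p under 0.05 edgeR placed 1 initiation factor higher in ACHN, and DESeq2 called 0 of all members higher there. Of the factors that place the initiator tRNA, the 4 in the group (EIF1AX, EIF2S1, EIF2S2 and EIF5) were called lower in H226, and 3 of the 4 in ACHN. EIF2S3 and EIF1, which act at the same step and are outside the group, were not called in H226 (−0.01 ± 0.04 and 0.02 ± 0.04) or in ACHN (−0.05 ± 0.04 and −0.05 ± 0.04). EIF2S1 encodes eIF2α, the subunit that the stress kinases phosphorylate. Its H226 levels were 171, 179.8 and 171 CPM under DMSO and 135, 134 and 129 CPM under SWTX-143 (log2 fold change −0.39 ± 0.05, edgeR adjusted p = 2.07e-10). Its ACHN levels were 135, 130.3 and 130.1 CPM and 116, 121 and 125 CPM (log2 fold change −0.13 ± 0.04, edgeR adjusted p = 0.0398). The groups were apart in both lines, but the ACHN call was lost in 11 of 14 alternatives, with adjusted p up to 0.217. EIF2S1 exons share 4.76% of their bases with ATP6V1D, which stood at 65.4 CPM against 139.8.

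EIF1AX encodes eIF1A, which opens the ribosome for scanning. Its levels were 125, 129 and 119 CPM under DMSO and 109.6, 112 and 97.1 CPM under SWTX-143 in H226 (log2 fold change −0.23 ± 0.05, edgeR adjusted p = 2.85e-04). In ACHN they were 110.4, 102 and 105 CPM and 91.3, 95.8 and 93.2 CPM (log2 fold change −0.18 ± 0.05, edgeR adjusted p = 0.0055). Its treated libraries were below all DMSO libraries in both lines, and the difference between lines was not called (−0.06 ± 0.07). EIF5, the activator of GTP hydrolysis by eIF2, fell by 0.17 ± 0.04 in H226 and 0.14 ± 0.04 in ACHN on the log2 scale. EIF2S2, eIF2β, fell by 0.26 ± 0.05 in H226 and had −0.06 ± 0.04 in ACHN, not called.

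The exchange factor eIF2B reloads eIF2 with GTP and is the target of the integrated stress response. Only EIF2B3 of its 5 subunits was called in H226 and only EIF2B5 in ACHN. That was 20% in each line, against 40.7% of all tested genes in H226 and 17.8% in ACHN. With 5 genes these counts do not set eIF2B apart from all tested genes. EIF2B5, the catalytic subunit, stood at 38.3, 34.1 and 35.7 CPM under DMSO and 32.4, 28.6 and 32.2 CPM under SWTX-143 in ACHN (log2 fold change −0.21 ± 0.07, edgeR adjusted p = 0.0329). In H226 its levels were 36.7, 35.5 and 35.4 CPM and 34.9, 29.5 and 37.2 CPM, with overlapping groups (log2 fold change −0.09 ± 0.07). The ACHN call was lost in 7 of 14 alternatives. It was lost without DMSO replicate 1 (−0.17, edgeR adjusted p = 0.159), DMSO replicate 3 (−0.22, edgeR adjusted p = 0.069) or SWTX-143 replicate 2 (−0.16, edgeR adjusted p = 0.182). With all libraries kept it was lost with upper-quartile scaling, library size alone and the joint fit (−0.20 to −0.18, edgeR adjusted p = 0.0591 to 0.0712) and with DESeq2 (−0.22, adjusted p = 0.164). EIF2B3 had log2 fold changes of −0.35 ± 0.09 in H226 and −0.02 ± 0.11 in ACHN, at 20.3 ± 1.36 and 13.6 ± 2.12 CPM under DMSO. The other values were −0.10 ± 0.06 and 0.01 ± 0.05 for EIF2B1, −0.02 ± 0.08 and 0.02 ± 0.07 for EIF2B2, and −0.02 ± 0.07 and −0.05 ± 0.08 for EIF2B4, in H226 and ACHN. EIF2B1 shares 14.8% of its exon bases with DDX55 and 0.772% with GTF2H3, at 42.1 and 64.6 CPM against 78.7.

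Of the eIF3 subunits in the group, which hold the small ribosomal subunit and the mRNA, EIF3B and EIF3A fell in both lines and EIF3D was not called. EIF3B, a core subunit, stood at 436, 450.2 and 435 CPM under DMSO and 330.5, 332 and 332 CPM under SWTX-143 in H226 (log2 fold change −0.41 ± 0.04, edgeR adjusted p = 8.34e-13). In ACHN it stood at 538, 517 and 510.1 CPM and 492, 477 and 431 CPM (log2 fold change −0.16 ± 0.04, edgeR adjusted p = 0.00174). The 3 treated H226 libraries lay within 2 CPM of each other, and no groups overlapped. EIF3A, the largest subunit, fell by 0.19 ± 0.04 in H226 and 0.09 ± 0.03 in ACHN on the log2 scale, and the ACHN call was lost in 10 of 14 alternatives. EIF3D, a cap-binding subunit, had −0.11 ± 0.05 and −0.04 ± 0.04. Among 9 other tested eIF3 subunits, 4 were called lower in H226 (median −0.04) and 1 in ACHN (median 0.02). The loosely bound subunit EIF3J fell in both lines (−0.47 ± 0.05 and −0.24 ± 0.04).

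Of the cap-binding complex eIF4F and its helpers, only the helper EIF4B was called higher, in H226. EIF4E, the cap-binding protein itself, stood at 57.0, 54.6 and 48.8 CPM under DMSO and 41.6, 40.5 and 41.8 CPM under SWTX-143 in H226 (log2 fold change −0.38 ± 0.06, edgeR adjusted p = 2.24e-06). In ACHN it stood at 69.4, 75.0 and 68.9 CPM and 59.3, 68.1 and 62.7 CPM (log2 fold change −0.17 ± 0.06, edgeR adjusted p = 0.0316). The groups were apart in both lines. Its ACHN call was lost without DMSO replicate 2 (−0.12, edgeR adjusted p = 0.218), SWTX-143 replicate 1 (−0.12, edgeR adjusted p = 0.233) or SWTX-143 replicate 3 (−0.16, edgeR adjusted p = 0.0907). It was also lost with upper-quartile scaling, library size alone and the joint fit (−0.15 to −0.14, edgeR adjusted p = 0.0624 to 0.0835) and with DESeq2 (−0.17, adjusted p = 0.141). EIF4G1, the scaffold, fell by 0.25 ± 0.04 in H226 and 0.15 ± 0.03 in ACHN on the log2 scale, from 1059 ± 26.4 to 891 ± 21.8 CPM and from 829 ± 12.5 to 747 ± 19.6 CPM, in all alternatives. EIF4G2 (DAP5), a related scaffold that does not bind EIF4E, was not called (0.02 ± 0.04 and −0.05 ± 0.03). EIF4H, a helper of the helicase, fell in H226 (−0.21 ± 0.04) and was not called in ACHN (−0.05 ± 0.04).

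EIF4B, another helper of the helicase, was the only initiation factor called higher in H226. Its levels there were 847, 861 and 855 CPM under DMSO and 937, 936 and 893 CPM under SWTX-143 (log2 fold change 0.11 ± 0.04, edgeR adjusted p = 0.0157). In ACHN they were 762, 743 and 765 CPM and 797, 824 and 789.8 CPM (log2 fold change 0.09 ± 0.03, edgeR adjusted p = 0.0686). All treated libraries were above all DMSO libraries in both lines, and the ACHN difference was not called. The H226 call was lost without DMSO replicate 3 (0.11, edgeR adjusted p = 0.0536), SWTX-143 replicate 1 (0.10, edgeR adjusted p = 0.0872) or SWTX-143 replicate 2 (0.10, edgeR adjusted p = 0.0782).

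EIF4A2, a helicase of the complex, had the opposite pattern between lines to most members. It stood at 116, 114 and 114 CPM under DMSO and 97.2, 93.9 and 106 CPM under SWTX-143 in ACHN (log2 fold change −0.21 ± 0.05, edgeR adjusted p = 7.49e-04). In H226 its levels were 342, 347 and 332 CPM and 337, 341 and 337 CPM, with overlapping groups (log2 fold change −0.01 ± 0.04). Its partner EIF4A1 was listed at 0 in all 12 libraries and was not tested. The annotation (GENCODE 29) has 29.8% of the EIF4A1 exon bases in common with the read-through gene SENP3-EIF4A1, which stood at 0.141 CPM, and lists 13 processed pseudogenes of EIF4A1. EIF3C and its near-identical copy EIF3CL also stood at or near 0, under 0.1 CPM in every group. How the counting treated reads that fit several genes is not given in the sources used here, and its part in these zeros was not tested. PDCD4, which binds and inhibits the eIF4A helicases, rose in both lines, by 1.02 ± 0.06 in H226 and 0.31 ± 0.06 in ACHN.

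The E-box CACGTG, the element bound by MYC and related factors, was in 5 of 21 windows of initiation factors (EIF2B3, EIF4B, EIF4E, EIF4G1 and EIF4H) and in 1 of 16 synthetase windows (IARS). It was in 10.1% of the windows of tested genes. EIF4E and EIF4G1 had 2 each, and their stretches are shown since both fell in both lines, with the E-boxes in capitals.
EIF4E: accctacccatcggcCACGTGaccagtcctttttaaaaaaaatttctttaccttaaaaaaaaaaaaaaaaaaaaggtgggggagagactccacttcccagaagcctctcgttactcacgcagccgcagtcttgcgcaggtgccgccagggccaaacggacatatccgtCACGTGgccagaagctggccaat
EIF4G1: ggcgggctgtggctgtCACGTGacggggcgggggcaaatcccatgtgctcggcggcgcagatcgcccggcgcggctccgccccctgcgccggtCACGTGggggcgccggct
They cover chr4:98929183-98929373 on the minus strand for EIF4E and chr3:184314446-184314556 on the plus strand for EIF4G1 of GRCh38.p14, from RefSeq, again 5′ to 3′. The genes with an E-box had both directions in H226, since EIF4B rose and the other 5 fell. The TEAD-binding core GGAATG was in 0 of 16 synthetase windows and in 2 of 21 windows of initiation factors, those of EIF4G2 and EIF5, against 10.9% of the windows of tested genes. Of these, EIF4G2 was not called in either line and EIF5 fell in both.

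The 4E-binding proteins, which bind and restrain EIF4E when mTORC1 is low, fell in H226 and were not called in ACHN. EIF4EBP1 stood at 75.5, 86.3 and 85.2 CPM under DMSO and 69.4, 70.9 and 63.3 CPM under SWTX-143 in H226 (log2 fold change −0.28 ± 0.06, edgeR adjusted p = 6.93e-05). In ACHN its groups overlapped at 75.3, 79.3 and 76.4 CPM and 81.6, 74.1 and 74.6 CPM (log2 fold change −0.0033 ± 0.05). EIF4EBP2 stood at 169, 159 and 167 CPM and 156, 152 and 149.6 CPM in H226 (log2 fold change −0.12 ± 0.04, edgeR adjusted p = 0.0321). All treated H226 libraries were below all DMSO libraries for both genes, but the EIF4EBP2 call was lost in 9 of 14 alternatives, with estimates of −0.14 to −0.07 and adjusted p up to 0.239. In ACHN EIF4EBP2 overlapped at 147, 149 and 142 CPM and 144, 144 and 149 CPM (log2 fold change −0.0005 ± 0.04). Of 9 genes of mTORC1 and of the MNK kinases that phosphorylate EIF4E, 3 were called lower and 4 higher in H226, where MKNK2 (0.64 ± 0.05), TSC1 (0.39 ± 0.07) and MKNK1 (0.26 ± 0.06) rose. In ACHN only MKNK2 was called (0.18 ± 0.05).

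The late-acting factors EIF5A, EIF6 and EIF5B fell in H226 and were not called in ACHN, and the difference between lines was called for all 3. EIF5A, which relieves stalled ribosomes and carries the amino acid hypusine, stood at 727, 769.9 and 783 CPM under DMSO and 594, 613 and 591 CPM under SWTX-143 (log2 fold change −0.34 ± 0.04, edgeR adjusted p = 1.72e-10). In ACHN its groups overlapped, at 1204, 1184 and 1182 CPM and 1188, 1198 and 1144 CPM (log2 fold change −0.02 ± 0.03). EIF5A shares 8.56% of its exon bases with GPS2, at 87.8 CPM against 931.5, and EIF5B 10.8% with REV1, at 48.5 CPM against 368.9. EIF6, which keeps the large subunit free, fell in H226 by 0.30 ± 0.05 and EIF5B, which joins the subunits, by 0.26 ± 0.04 on the log2 scale. Their ACHN values were −0.05 ± 0.04 and −0.04 ± 0.04. Elongation and release factors, which follow them, had 5 of 14 called lower and 1 higher in H226 (median −0.06), the lower ones led by ABCE1 (−0.58 ± 0.04), GSPT1 (−0.37 ± 0.04) and ETF1 (−0.33 ± 0.04), which end translation and split the ribosome. In ACHN 1 of 15 was called lower and 1 higher. Calls in either direction made 42.9% of these factors in H226 and 13.3% in ACHN, near the 40.7% and 17.8% of all tested genes. Of 17 other tested initiation factors, 2 were called lower in H226 (EIF5A2, −0.47 ± 0.10, and EIF4A3, −0.28 ± 0.05) and 1 higher (PDCD4). In ACHN 1 was called lower and 2 higher. These calls made 17.6% of the 17 factors in each line, against 40.7% of all tested genes in H226 and 17.8% in ACHN. The medians of the 17 were −0.03 in H226 and −0.01 in ACHN, against −0.21 and −0.05 for the initiation factors in the group. RNA polymerase III and its factors, which make tRNA, had 11 of 19 called lower and 1 higher in H226 (median −0.20). In ACHN 5 were called lower and 1 higher (median −0.08), and POLR3K had −0.83 ± 0.11 in H226 and −0.36 ± 0.07 in ACHN. Calls in either direction made 63.2% of the 19 in H226, against 40.7% of all tested genes, and 31.6% in ACHN, against 17.8%.

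**Figure D2:**
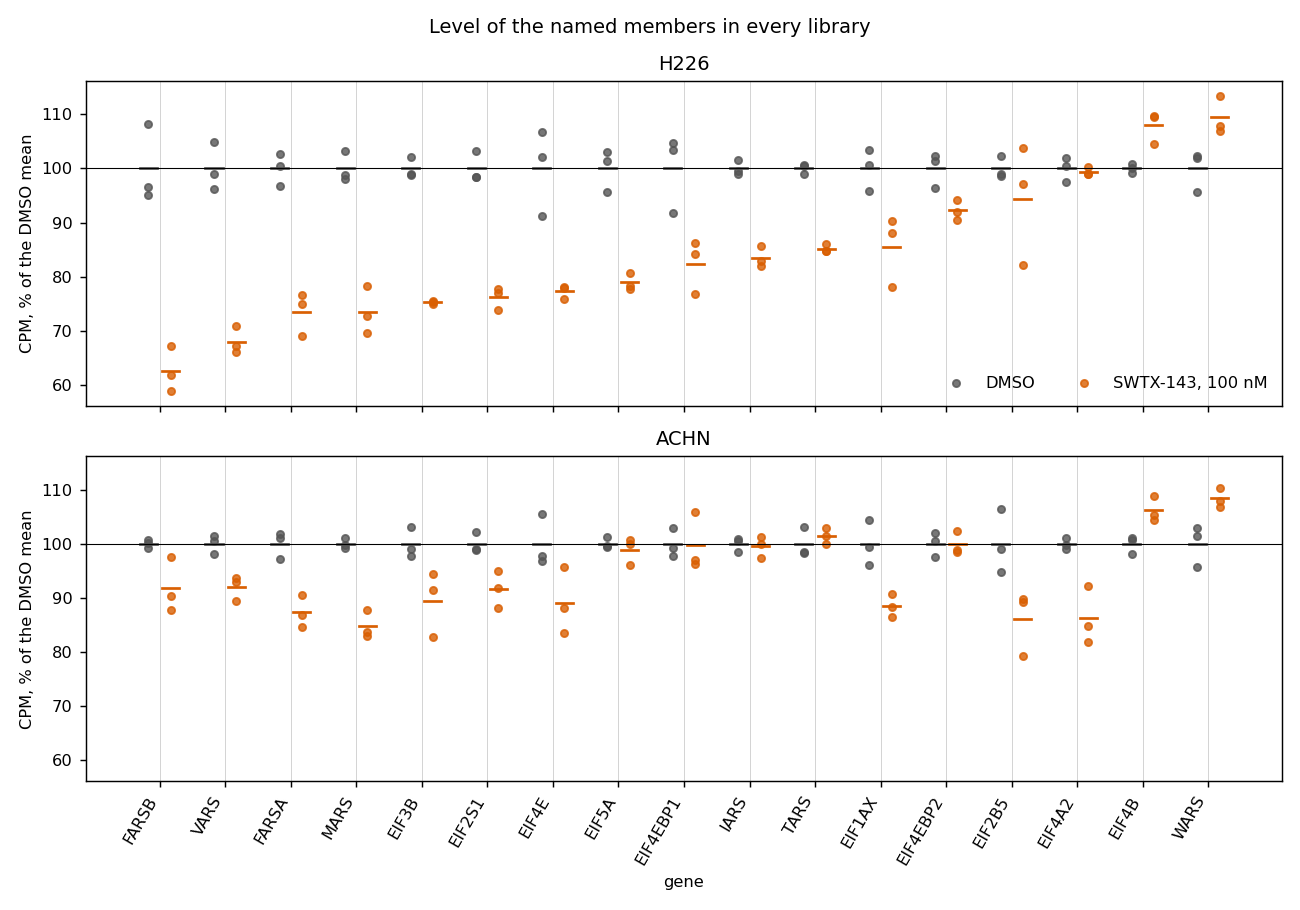
Level of the 17 members with values in every library (x axis, sorted by the H226 effect) as CPM in percent of that line's DMSO mean (y axis, not starting at 0), in H226 above and ACHN below; each point is 1 library and each short bar a group mean, grey for DMSO and orange for SWTX-143. FARSB, VARS, FARSA and MARS lie far below their DMSO libraries in H226, while EIF4A2 and EIF2B5 are lower in ACHN and overlap in H226.

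The effect was tested for a difference between lines in 1 fit of all 12 libraries, as the H226 effect minus the ACHN effect. The difference was called negative, a larger fall or smaller rise in H226, for 14 of 43 members, against 9.70% of 14664 tested genes. It was called positive for 1, against 5.89%, and in either direction for 34.9% of members against 15.6% of genes. The median difference was −0.12 over the members and −0.01 over all tested genes. The members' median shrank to −0.08 to −0.06 without H226 DMSO replicate 1, 2 or 3 or H226 SWTX-143 replicate 2 or 3, and the median of all genes then turned to 0.02 to 0.03. With upper-quartile scaling and with the 5 CPM minimum the members' medians were −0.08 and −0.07, and those of all genes 0.03 in both. By family edgeR gave 6 negative and 0 positive of 20 synthetases (9 and 0 at an unadjusted p under 0.05), and 8 negative and 1 positive of 23 initiation factors. By the calls in each line, 13 members were lower in both, 17 lower in H226 and not called in ACHN, 2 lower in ACHN and not called in H226 (EIF2B5 and EIF4A2), 1 higher in both (WARS), 1 higher in H226 and not called in ACHN (EIF4B), and 9 called in neither.

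The difference was largest for FARSB (−0.56 ± 0.08, edgeR adjusted p = 1.24e-08) and VARS (−0.44 ± 0.06, adjusted p = 7.02e-08). It followed for EIF5A (−0.33 ± 0.05, adjusted p = 1.15e-06), IARS (−0.26 ± 0.06, adjusted p = 3.11e-04), EIF3B (−0.26 ± 0.06, adjusted p = 5.97e-04) and TARS (−0.26 ± 0.06, adjusted p = 0.00101) in order of p. FARSB fell by 37.45% in H226 and its mean was 8.20% lower in ACHN, where it was not called. For EIF5A, IARS and TARS the ACHN estimates lay between −0.02 and 0.02, so the difference nearly equalled the H226 fall. The positive difference was that of EIF4A2 (0.20 ± 0.06, adjusted p = 0.0184). Without ACHN SWTX-143 replicate 1 or 2 the EIF4A2 difference was 0.18 or 0.17 and no longer called (edgeR adjusted p = 0.057 and 0.09).

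Several genes whose call differed between lines were not shown to differ. The difference was −0.15 ± 0.06 for GARS, −0.33 ± 0.14 for EIF2B3, −0.12 ± 0.06 for EIF4EBP2 and 0.12 ± 0.10 for EIF2B5, none called (edgeR adjusted p = 0.0611, 0.114, 0.199 and 0.51). For WARS and YARS the estimates were nearly equal in the lines, with differences of 0.01 ± 0.07 and 0.0004 ± 0.07. EIF4EBP1 was called different (−0.28 ± 0.08, adjusted p = 0.00739), though not without H226 DMSO replicate 2 (−0.20, edgeR adjusted p = 0.123), H226 DMSO replicate 3 (−0.22, edgeR adjusted p = 0.0787), H226 SWTX-143 replicate 3 (−0.18, edgeR adjusted p = 0.119) or ACHN SWTX-143 replicate 1 (−0.23), nor with DESeq2 (−0.26, adjusted p = 0.0588).

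**Figure D3:**
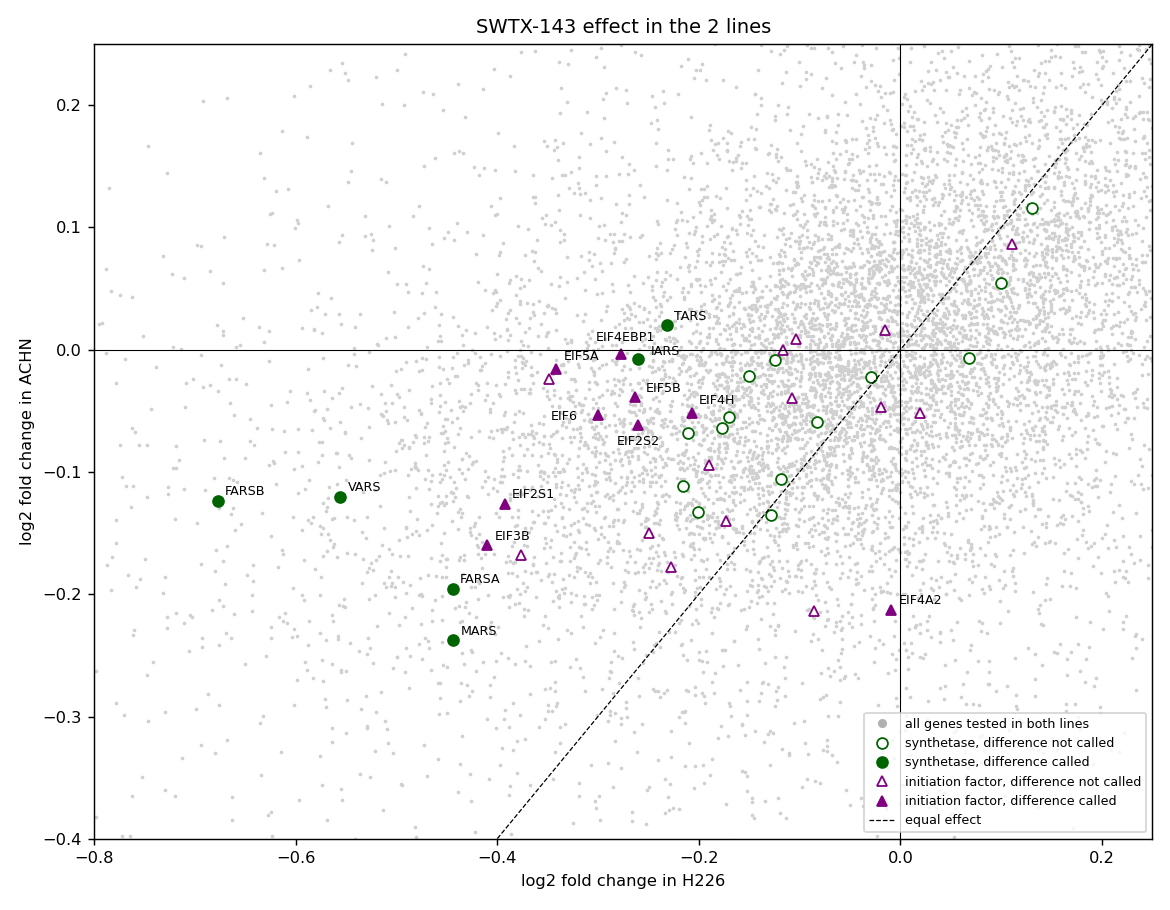
Log2 fold change of SWTX-143 over DMSO in H226 (x axis) against that in ACHN (y axis) for the 43 tested members, over all genes tested in both lines in grey; genes outside the axis ranges are not drawn, filled symbols are members whose difference between lines was called, and the dashed line marks equal effects. Members called different lie left of the dashed line, with FARSB at −0.68 and −0.12, except EIF4A2 at −0.01 and −0.21.

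Levels under DMSO differed widely among the members when set per kilobase of the principal GENCODE 29 transcript. In H226, EIF4G2 was highest (934 ± 24.8 CPM per kb), followed by EIF5A (503 ± 19.4), EIF4B (206 ± 1.72) and EIF4G1 (192 ± 4.78), and the same scale gave 568 ± 7.08, 787 ± 7.94, 182 ± 2.94 and 150.3 ± 2.26 CPM per kb in ACHN. The 5 eIF2B subunits spanned 5.86 to 25.5 CPM per kb in H226 and 8.11 to 38.8 CPM per kb in ACHN. The synthetases ran from 16.7 (CARS) to 96.6 (KARS) CPM per kb in H226, with SARS (93.9 ± 3.46) and GARS (90.3 ± 2.24) next. The 3 DMSO libraries of SARS overlapped those of KARS (SD 3.77) and of GARS, while all 3 of KARS lay above all 3 of GARS. In ACHN they ran from 14.1 (CARS) to 185 (GARS). EIF4E is left out of this order because its principal transcript of 11523 bases may not be the one expressed. For the other members the expressed transcript was not checked either, so the order depends on the lengths used. EIF4G2 was set by 1969 bases, against 8655 in the union of its exons, and its first place may not hold for a longer transcript. EIF2B2, with the lowest mean of the eIF2B subunits in both lines, was set by 4314 bases. In ACHN its 8.11 ± 0.21 CPM per kb lay within the spread of EIF2B3 (8.19 ± 1.28), so their order there is not settled. Each line is its own deposited table, so the level of a gene in one line was not tested against the other.

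The call counts in ACHN depended on scaling more than those in H226. The TMM factors of all treated libraries were above 1 (1.0077 to 1.0161) and those of all DMSO libraries below 1 (0.9806 to 0.9947), in both lines. With upper-quartile scaling the ACHN members split 8 lower and 2 higher in place of 15 and 1, and with library size alone 7 and 2. Their median was then −0.03 with either scaling, in place of −0.05. In H226 the splits were 25 and 3, and 26 and 3, in place of 30 and 2.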

How the data were processed

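The authors deposited raw read counts per gene symbol, 1 table per line, for 12 poly(A) libraries. Per the submitters' processing notes, FastQC, cutadapt and STAR 2.6.1d were used with hg19 (GRCh37); how reads were counted (program, strand, multi-mapping reads) is not given in the sources used here. All sample columns matched a label (0 unmatched). Depth was 9690980 to 11262663 counts per library. Per line, 3 SWTX-143 and 3 DMSO libraries were compared by edgeR 4.0.16 (R 4.3.3) (filterByExpr, TMM, robust quasi-likelihood F test, Benjamini-Hochberg over all tested genes, limit 0.05), and 1 joint fit tested the difference between lines. The SE is the log2 change divided by the root of F. The tests were tested on simulated data. Alternatives were 3 other scalings, no filter on low counts, a mean of at least 5 CPM, DESeq2 1.42.0, a replicate block, a joint fit, and leaving out each library. Members, gene lists and tests were chosen with earlier results of these data known. Values in every library are given for the up to 6 largest called falls and rises per line, the 6 smallest adjusted p for the difference, and both 4E-binding proteins; QARS was added after its values were seen. From each other list up to 3 genes with the smallest p per line could be named; EIF1, EIF2S3, EIF3C, EIF3CL, and ATF4 and AIMP1 where not called, were also chosen after their values were seen. The shares of calls among genes of like level, and of genes whose groups do not overlap, were added after the values were seen. Symbols, overlaps and lengths came from GENCODE 29, promoters from RefSeq (GRCh38.p14).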

Additional observations from a re-analysis of the deposited data

Results flagged for a closer look

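The members below came up because the test of the H226 effect minus the ACHN effect, over all 12 libraries with edgeR, was past its limit. Values are log2 differences.

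For 14 members the effect was lower in H226. Among the synthetases these were FARSB (−0.56), VARS (−0.44), IARS (−0.26), TARS (−0.26), FARSA (−0.25) and MARS (−0.21). Among the initiation factors they were EIF5A (−0.33), EIF4EBP1 (−0.28), EIF2S1 (−0.27), EIF3B (−0.26), EIF6 (−0.25), EIF5B (−0.23), EIF2S2 (−0.20) and EIF4H (−0.16). EIF4A2 alone had a positive difference (0.20), with a fall in ACHN and no call in H226.

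The calls of FARSB, VARS, EIF5A, IARS, EIF3B, TARS and EIF2S1 were kept in all 19 alternatives of this test. Those of the other 8 were lost in 1 (EIF6) to 17 (EIF4H) of them.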

How the results depend on the processing

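In H226, 25 of 32 calls held in all 14 alternatives, in ACHN 6 of 16 (EIF1AX, EIF3B, EIF4A2, EIF4G1, EIF5 and MARS) and in the difference 7 of 15 in all 19. No called member changed sign. Members not called in the first analysis changed sign in some alternative for 5 of 11 in H226, 11 of 27 in ACHN and 9 of 28 in the difference. QARS in H226, FARSB and EIF4B in ACHN, and EIF2B3 and EIF4E in the difference were called in some alternative. The cause of these changes was not tested.

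The 2 members higher in H226 became 1 with no filter on low counts and 1 with DESeq2. The 15 members lower in ACHN became 8 with upper-quartile scaling, 7 with library size alone, 8 with DESeq2 and 7 in the joint fit. The 1 member higher in ACHN became 2 with upper-quartile scaling, library size alone or the 5 CPM minimum, and 0 with DESeq2 or the replicate block. At an unadjusted p under 0.05, 2 were higher in ACHN with edgeR, with the block and with DESeq2.

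Leaving out 1 library gave 26 to 30 members lower and 0 to 3 higher in H226, and 9 to 12 lower and 0 to 1 higher in ACHN, with 9 without ACHN DMSO replicate 3. It gave 8 to 15 negative and 0 to 1 positive differences, with 8 without H226 DMSO replicate 2 or 3 and 0 without ACHN SWTX-143 replicate 1 or 2. The LARS fall in H226 was lost without SWTX-143 replicate 2 and with upper-quartile scaling, the EIF5B difference without H226 DMSO replicate 3 or H226 SWTX-143 replicate 2, and the EIF6 difference without H226 DMSO replicate 2.

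Same-numbered DMSO and treated libraries did not deviate together (correlations −0.046, 0.075 and 0.041 in H226 and −0.077, −0.106 and −0.022 in ACHN), so the numbers were not taken as pairs. With the replicate block the counts were 30 lower and 3 higher in H226, 11 and 0 in ACHN, and 13 and 1 in the difference.

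Over all genes, calls in H226 split 2919 lower and 2567 higher, against 2324 and 3283 with upper-quartile scaling and 2419 and 3110 with library size alone. In ACHN they split 1264 and 1137, against 1028 and 1450 and 977 and 1537. The difference split 1423 negative and 863 positive, against 1045 and 1159 with upper-quartile scaling, 1061 and 1056 without a filter and 1021 and 1236 with the 5 CPM minimum.

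The eIF2B subunits, at 13.6 to 96.2 CPM under DMSO, had standard errors of up to 0.11, against 0.03 for EIF5A in ACHN.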
